A study of Mus musculus with 19 samples.

Results

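The 4 lymphomas of late onset from Bptf heterozygous mice were compared with the 5 lymphomas of late onset from Bptf wild-type mice, across all genes. These 9 tumours were taken by genotype and onset class from a series of 19, in which the other 10 were early tumours (4 heterozygous and 6 wild-type). The HET_late mice were Bptf+/Δ, with 1 deleted Bptf allele, and carried the Em-Myc transgene. The WT_late mice were Bptf+/+ and carried the same transgene, so Myc is driven in both groups. In Em-Myc mice the immunoglobulin heavy chain enhancer directs Myc to B cells, and the animals develop B lineage lymphomas. Tumours arose at 30, 44, 30 and 66 weeks in HET_late_1 to HET_late_4, and at 36, 76, 58, 38 and 28 weeks in WT_late_1 to WT_late_5. The numbers only name libraries, each from a separate tumour, and the labels gave neither sex nor strain. Which exons the deleted allele lacks, and whether it still gives a transcript, is not stated in the labels or files used.

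Bptf encodes the scaffold and largest protein of NURF, a chromatin remodelling complex that slides nucleosomes with the ISWI ATPase SMARCA1 and the histone chaperones RBBP4 and RBBP7. BPTF reads histone marks of active promoters through its PHD finger and bromodomain. It is known as a partner that MYC needs at many of its target genes, and as a regulator of antigen processing in mouse tumour cells.

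Whole-tumour polyadenylated RNA was read at 8995949 to 12350345 reads in HET_late and 8297856 to 11361010 reads in WT_late libraries. Values are normalised read counts, that is, reads divided by 1 factor per library. All 7 B lineage markers were read in every late tumour, at a summed 7577 to 17817 in HET_late and 4123 to 29394 in WT_late. Ebf1, a B lineage transcription factor, had 49.7, 64.8, 291 and 304 in HET_late_1 to HET_late_4, against 23.1, 1217, 1524, 572 and 1103 in WT_late_1 to WT_late_5. HET_late_1 and WT_late_1 thus had the least Ebf1 of their groups, although both held the immunoglobulin heavy chain transcript Ighm (19290.2 and 16809). In HET_late_4 the leading transcript was Igha with 5.55% of reads, whereas in the other 8 late libraries it was Eef1a1. Xist, the RNA that coats the inactive X chromosome in female cells, was read at a high level in HET_late_1, WT_late_2 and WT_late_5, and Y-linked genes were read in the other 6 libraries.

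The promoters of Igtp and Irgm1 are shown because these interferon-inducible GTPase genes were among the named members of the interferon list with the smallest p-values (their values follow further on), and the table of RefSeq promoters used here (GRCm38.p6) held no entry for the other two, Zbp1 and Gbp6. Each sequence runs 5′ to 3′ from 250 bases before the annotated start to 50 bases after it. Capitals mark matches to TTCNNNGAA, the gamma-activated site of interferon-gamma signalling, and to the core of the interferon-stimulated response element on either strand, which is GAAA followed after any 2 bases by GAAA again. Igtp is on the plus strand (chr11:58199306-58199605) and held 1 match to each. Irgm1 is on the minus strand (chr11:48871371-48871670) and held 2 matches to the response element, which overlap by 4 bases.
Igtp: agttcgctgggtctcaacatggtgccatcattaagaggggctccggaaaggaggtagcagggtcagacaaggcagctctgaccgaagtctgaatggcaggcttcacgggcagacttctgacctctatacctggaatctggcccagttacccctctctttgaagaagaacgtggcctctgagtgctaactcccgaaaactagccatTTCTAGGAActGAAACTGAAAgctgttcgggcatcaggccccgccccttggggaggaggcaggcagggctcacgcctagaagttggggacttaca
Irgm1: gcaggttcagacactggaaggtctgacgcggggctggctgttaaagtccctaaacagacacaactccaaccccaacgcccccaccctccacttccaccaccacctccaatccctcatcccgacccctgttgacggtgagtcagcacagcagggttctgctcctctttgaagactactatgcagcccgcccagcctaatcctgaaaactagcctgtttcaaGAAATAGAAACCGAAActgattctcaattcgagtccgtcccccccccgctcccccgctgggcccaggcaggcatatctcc
Of 33 interferon list members with a promoter in that table, 25 (75.8%) held at least 1 of the motifs, against 3495 (12.9%) of all 27025 promoters. The response element was in 63.6% of the members and 3.99% of all promoters, and the gamma-activated site in 30.3% and 9.55%. A match describes these letters and does not show a bound site.

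Bptf itself (ENSMUSG00000040481.17, GRCm38 chr11:107033081-107132127, minus strand) was lower in Bptf+/Δ tumours. Its normalised read counts were 1573, 408, 1137 and 694 in HET_late_1 to HET_late_4, against 1681, 2391, 2586, 2087 and 2217 in WT_late_1 to WT_late_5. All 4 HET_late libraries lay below all 5 WT_late libraries, although HET_late_1 and WT_late_1 were close, and HET_late_2 was the lowest. The means were 953 ± 511 (SD, n = 4) in HET_late and 2192 ± 342 (SD, n = 5) in WT_late tumours, so HET_late stood at 43.5% of WT_late. The difference of -1.36 in mean log2(value + 1) had p = 0.00794 in an exact two-sided permutation test, the smallest that this design can give. As whole tumours were read, fewer cells that express a gene and less RNA per cell cannot be told apart, here and in all that follows. Adjusted over all genes in limma, Bptf missed the threshold (adjusted p = 0.773), and in the authors' deposited table it stood at -1.21 with an adjusted p of 0.327. It passed with DESeq2 on the recovered reads (adjusted p = 0.0239). Leaving out single tumours gave -1.66 without HET_late_1 to -1.01 without HET_late_2, with exact permutation p-values of 0.0179 to 0.0286. As the groups did not overlap, these are the smallest p-values that the remaining group sizes allow, whichever tumour is left out.

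**Figure D1:**
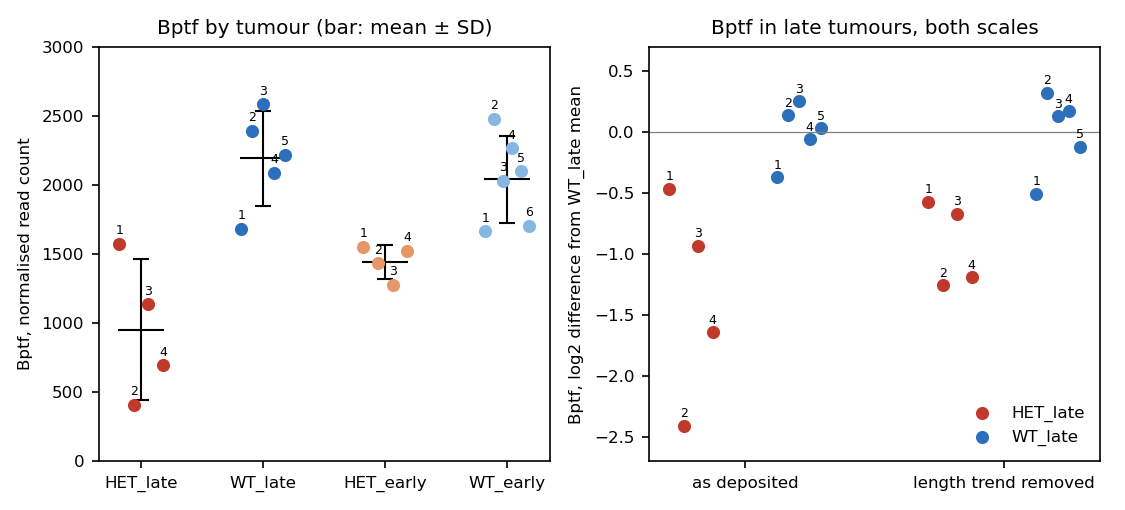
Bptf in each tumour, with the number of the library beside its point. On the left are normalised read counts with mean ± SD for the 4 groups of the series, and on the right the log2 difference of each late tumour from the WT_late mean, before and after the transcript length trend was removed. HET_late_2 and HET_late_4 lie farthest below the WT_late tumours on both scales.

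Differences between the groups also followed transcript length. Genes with a mean of at least 10 were put into 10 bins by the length of their longest annotated transcript, and the median difference of HET_late from WT_late went down across them, with 0.36 in the shortest and -0.33 in the longest bin. HET_late_2 had the steepest trend, with a median of 1.02 in its shortest bin and -0.89 in its longest, relative to the WT_late mean. The shortest and longest bins were at 0.36 and -0.36 in HET_late_4, 0.10 and -0.18 in HET_late_3, and -0.10 and 0.05 in HET_late_1. No WT_late library went beyond ±0.16 in these bins. Bptf has a longest transcript of 12036 nt and lies in the longest bin. With a loess trend on length removed from each library, Bptf was at -0.57, -1.26, -0.67 and -1.19 in HET_late_1 to HET_late_4 relative to the WT_late mean, against -0.50, 0.32, 0.13, 0.17 and -0.12 in WT_late_1 to WT_late_5. The groups still did not overlap, the nearest being HET_late_1 and WT_late_1, and the difference was -0.92 (exact permutation p = 0.0159). RNA quality was not measured here, and the part of transcript length in the results was not tested beyond this removal.

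**Figure D2:**
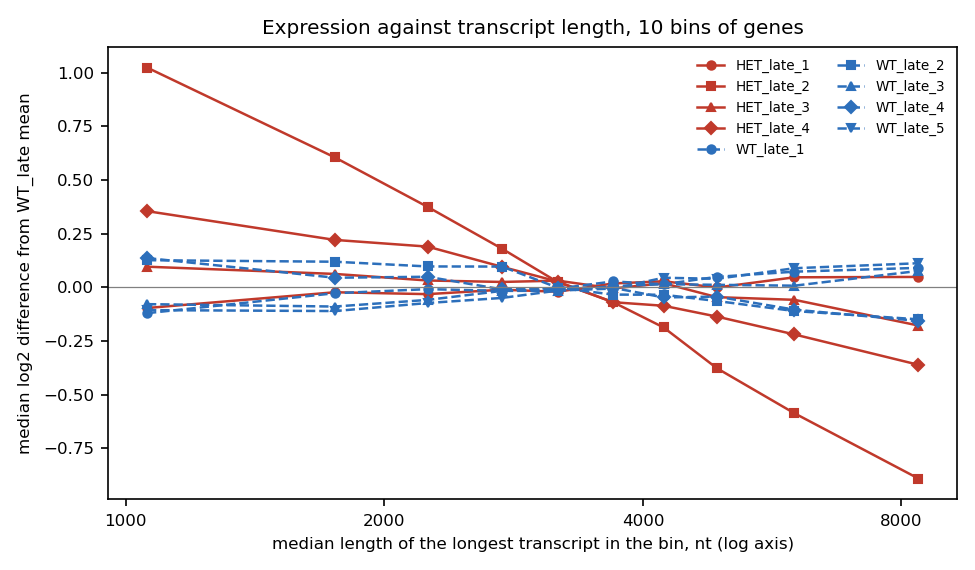
Median log2 difference of each late tumour from the WT_late mean (vertical axis) in 10 bins of genes by transcript length (horizontal axis, log scale), with solid lines for HET_late and dashed lines for WT_late. HET_late_2 runs from 1.02 in the shortest bin to -0.89 in the longest, HET_late_4 follows the same slope less steeply, and the WT_late tumours stay within ±0.16.

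Genes near Bptf were examined for the same difference. Of 46 genes that start within 2 Mb of it, 37 had a mean of at least 10, their median was -0.13, 24 were lower in HET_late tumours, and 0 had an unadjusted limma p under 0.05. Over all 19927 genes limma called 0 (0.0% at an adjusted p under 0.05, smallest adjusted p 0.773). Without adjustment, 1222 genes (6.13%) had a p under 0.05, 533 higher (2.67%) and 689 lower (3.46%) in HET_late tumours. On the recovered reads edgeR also called 0 genes (0.0%, smallest adjusted p 0.309, 1283 at an unadjusted p under 0.05). DESeq2 called 33 of 13917 genes (0.237%), 19 higher and 14 lower, and the authors' deposited table held 15 of 13700 (0.109%), 11 higher and 4 lower. The calls of DESeq2 and of the authors shared 9 genes, which is 60% of the authors' calls and 27.3% of those of DESeq2. The unadjusted count was 518 without HET_late_2, 745 without WT_late_3, 780 without WT_late_5, 1852 without HET_late_1 and 2129 without HET_late_3. With the length trend removed it was 543 of 12709 genes, of which 317 were higher and 226 lower, so the larger share then lay in the higher direction. Over all genes the median difference was 0.02, and 51.6% had the higher mean in HET_late.

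Among the 8 genes with the smallest limma p in the higher direction, predicted genes and genes under a mean of 20 in both groups passed over, 4 were above every WT_late tumour in all HET_late tumours, a pattern that 95 of 19927 genes showed (0.477%). These were Ppt1, Negr1, Muc20 and RP23-152O2.3. A choice by small p on these same tumours favours groups that do not overlap, so the count of 4 follows in part from the choice. Ppt1, a lysosomal thioesterase that removes palmitate from proteins (chr4:122836242-122859175), had 718, 1077, 1355 and 1463 in HET_late against 559.7, 522, 529, 684 and 549.6 in WT_late tumours. Its means were 1153 ± 333 (SD, n = 4) in HET_late and 569 ± 66.1 (SD, n = 5) in WT_late, a difference of 0.97 ± 0.22 (SE) on the log2 scale. It remained at 0.88 after removal of the length trend, and its gene overlaps Cap1 on the other strand, from which reads cannot be separated if strand was not used in counting. Negr1, an adhesion molecule of the immunoglobulin superfamily best known from neurons, was listed at 24.4, 47.5, 28.3 and 4.52 in HET_late and at 0.92, 1.02, 1.205, 0 and 1.18 in WT_late tumours, where each value above 0 is 1 read. Muc20, a mucin, had 11.3, 8.64, 96.8 and 3.01 in HET_late and 0.92, 1.02, 0, 0 and 0 in WT_late tumours (2 reads in all), and most of its HET_late signal came from HET_late_3. RP23-152O2.3, a symbol with no match in the annotation used here, had 39.2, 80.7, 3.93 and 54.2 against 1.84, 1.02, 2.41, 0 and 3.53, and HET_late_3 was close to WT_late_5.

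The other 4 of these genes overlapped between the groups through HET_late_2 or HET_late_3. Klra17, a receptor of the Ly49 family of mouse killer cell and myeloid receptors, had 63.6, 186, 2.36 and 1186 in HET_late and 1.84, 1.02, 2.41, 1.21 and 0 in WT_late tumours, so it was high in HET_late_1, HET_late_2 and HET_late_4 only, and reads of the family's near-identical genes may be shared. Without HET_late_3 limma called 2 genes, Klra17 (6.84, adjusted p = 0.01003) and RP23-152O2.3 (4.53, adjusted p = 0.00556). Ly6a, which encodes the surface antigen Sca-1, had 1632, 2747, 345 and 8141 against 480.4, 816, 102, 162 and 133, with HET_late_4 highest and HET_late_3 below WT_late_1 and WT_late_2. Igtp had 544, 560.3, 203 and 682 in HET_late and 266, 236, 116, 83.4 and 57.7 in WT_late tumours, again with HET_late_3 inside the WT_late range. Tapbpl, a peptide editor of MHC class I (also called TAPBPR), had 411, 309.7, 540.4 and 792 in HET_late and 258, 335, 195, 273 and 178 in WT_late tumours, and here HET_late_2 was the one below WT_late_2. The gene body of Igtp shares bases with Irgm2 on the same strand, and that of Tapbpl with Vamp1 on the other. Log2 differences were 5.29, 2.94, 1.81 and 0.998 in this order, and all 8 genes of this direction had a limma adjusted p between 0.773 and 0.796.

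Of the 8 genes with the smallest p in the lower direction, 4 were below every WT_late tumour in all HET_late tumours. The choice by p favours this pattern too, and 106 of all genes showed it (0.532%). Bptf was the first of these 4. St6gal1, the sialyltransferase that makes the glycan ligand of CD22 on B cells (chr16:23224740-23360350), had 457, 356, 554 and 815 in HET_late against 1098, 2720.3, 1416, 1022 and 1834 in WT_late tumours. Its means were 545 ± 197 (SD, n = 4) in HET_late and 1618 ± 694 (SD, n = 5) in WT_late, a difference of -1.54 ± 0.38 (SE), which was -1.44 with the length trend removed. Every HET_late tumour thus held less St6gal1 transcript than the lowest WT_late tumour, WT_late_4. It passed with DESeq2 (adjusted p = 0.043) and in the authors' deposited table (-1.58, adjusted p = 0.0479). Of the 22 sialyl, galactosyl and related glycosyltransferase genes listed, 10 were higher in HET_late tumours and the median was -0.07. St6gal1, named for its small p, was the 1 member of 22 at an unadjusted p under 0.05, against 6.13% of all genes. Usp24, a deubiquitinase, had 1489.7, 678, 1237 and 894 in HET_late against 1567, 2359.5, 2084, 1788 and 1889.99 in WT_late tumours, and its difference of -0.90 became -0.50 with the length trend removed. Acsf2, a mitochondrial acyl-CoA synthetase, had 412, 199, 418 and 271 against 466, 431, 675, 886 and 1407, with WT_late_2 just above the highest HET_late tumour.

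Others of these genes overlapped between the groups. Pip4k2b, a phosphoinositide kinase, had 1040.2, 652, 1159 and 678 in HET_late against 1031, 1852, 1571, 1791 and 1615 in WT_late tumours, and only WT_late_1 lay within the HET_late range. Mnt, which pairs with MAX and represses MYC targets, had 450.4, 278, 396 and 274 in HET_late against 546, 435, 558, 588 and 732 in WT_late tumours, a difference of -0.72 ± 0.19 (SE). WT_late_2 was below HET_late_1, and otherwise the groups were apart. Abl2, a tyrosine kinase, had 986, 364, 621 and 556 in HET_late against 858, 1262, 1271, 1091 and 1625 in WT_late tumours, with HET_late_1 above WT_late_1. Its difference was -1.01, and -0.62 with the length trend removed. Acsf2, given above, shares bases with Chad on the other strand.

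The authors' deposited table called 15 genes, of which RP23-152O2.3, Muc20, Klra17, Negr1 and St6gal1 are given above. Lilr4b, an inhibitory receptor of myeloid cells whose family holds near-identical copies, had 165, 141, 135 and 139 in HET_late against 69.2, 53, 45.8, 48.3 and 41.2 in WT_late tumours. The groups were far apart and each was even, at 145 ± 13.4 (SD, n = 4) in HET_late and 51.5 ± 10.8 (SD, n = 5) in WT_late. The difference was 1.49 ± 0.47 (SE) in limma, whose SE also takes in the spread of the early tumours. It was 1.48 in the authors' deposited table (adjusted p = 4.23e-05). Sult1a1, a phenol sulfotransferase, did not overlap either, with 119, 108, 162 and 251 in HET_late and 65.5, 59.1, 71.1, 42.3 and 44.7 in WT_late tumours. Zfp52, a zinc finger gene, was lower in every HET_late tumour, with 69.7, 57.6, 40.9 and 93.3 in HET_late against 137, 153, 142, 167 and 269 in WT_late. Both of these overlap a gene on the other strand (Sgf29 and 9330136K24Rik).

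The rest of these calls, apart from Rag1 (given with the B cell genes), were less even across tumours. Cd300e, an activating receptor of monocytes, had 263, 573, 3.93 and 18.1 in HET_late against 7.38, 0, 13.3, 1.21 and 1.18 in WT_late tumours, high in HET_late_1 and HET_late_2 only. Lipg, the endothelial lipase, shared that pattern, with 323, 566, 31.5 and 6.02 in HET_late against 8.298, 18.3, 16.9, 10.9 and 7.06 in WT_late tumours. C6, a component of the complement membrane attack complex, had 71.4, 34.6, 6.29 and 247 against 11.1, 3.06, 3.61, 4.83 and 0. In each of these 3 genes at least 1 HET_late tumour lay within or below the WT_late range. Cox4i2, a subunit isoform of cytochrome c oxidase, had 8.71, 37.4, 142 and 117 in HET_late against 3.69, 15.3, 8.43, 8.46 and 3.53 in WT_late tumours, high in HET_late_3 and HET_late_4 and within the WT_late range in HET_late_1. The chemokine Ccl4 had 87.1, 197, 56.6 and 27.1 in HET_late and 28.6, 14.3, 12.05, 8.46 and 7.06 in WT_late tumours, and HET_late_4 lay just under WT_late_1. Col27a1, a fibrillar collagen, had 20.04, 20.2, 19.7 and 4.52 in HET_late against 54.4, 70.3, 1579.6, 80.95 and 217 in WT_late tumours, with WT_late_3 far above all others.

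**Figure D3:**
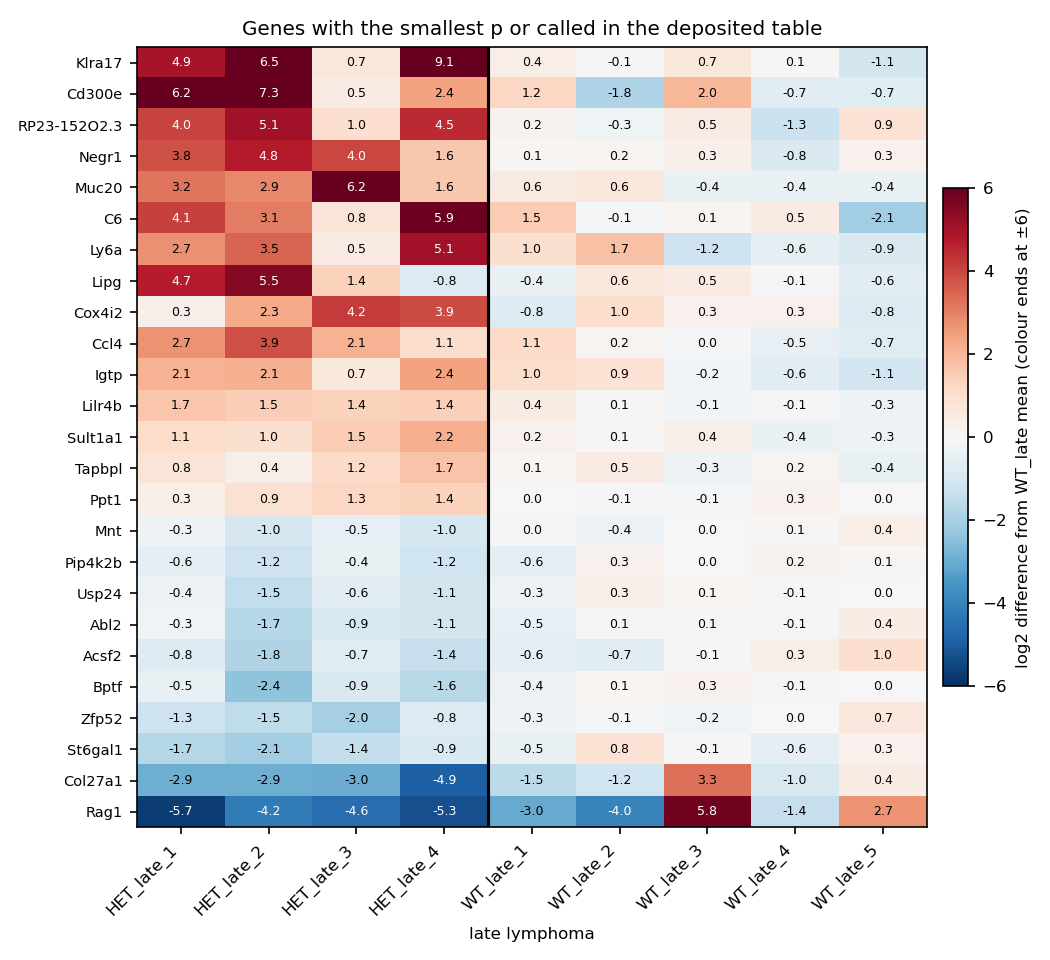
Log2 difference of each late tumour (columns, HET_late left of the line and WT_late right of it) from the WT_late mean, for genes with the smallest limma p in each direction and the 15 genes called in the authors' deposited table (rows). HET_late_3 is near the WT_late tumours for Klra17, Cd300e and RP23-152O2.3, and Bptf, St6gal1 and Rag1 are below 0 in all 4 HET_late tumours.

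Among the NURF and ISWI remodellers, 12 of 14 members had the lower mean in HET_late tumours (median -0.41), against 48.4% of all genes, and 3 were lower at an unadjusted p under 0.05, against 3.46%. After Bptf came Baz1b, a subunit of the WICH remodeller, with 2784, 1643, 3354 and 1877 in HET_late against 3089.7, 4321, 3460.5, 3508 and 4258 in WT_late tumours and a difference of -0.67. HET_late_3 alone lay within the WT_late range. Rsf1, partner of the ATPase SMARCA5 in the RSF remodeller, was the third such gene, at -0.50, and Baz1a, partner of SMARCA5 in ACF and CHRAC, was at -0.65. The other NURF members lay closer to 0. Rbbp4 was at -0.34 and Rbbp7 at -0.04, and Smarca1, the NURF ATPase, was listed at 2.8 or less in every late tumour. Smarca5, the ATPase of the other ISWI complexes, had 1413, 1299, 2063 and 1209 in HET_late against 1524, 1591, 2119, 1953 and 1681 in WT_late tumours (-0.27). These genes have long transcripts (median 6151 nt), and with the length trend removed the list median was -0.20. Bptf itself was then the 1 member lower at an unadjusted p under 0.05, against 1.78% of all genes. Baz1b was at -0.44 and Rsf1 at -0.09. Without HET_late_2 the median as deposited was -0.24. Cecr2, the partner of ISWI in the CERF remodeller, varied widely within both groups, with 116, 122, 4968 and 179 in HET_late and 159.5, 354, 441, 2626 and 2782 in WT_late tumours.

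Myc, the driver of these tumours (chr15:61985391-61990374), did not separate the groups. It had 6567, 3951, 6223 and 3789.6 in HET_late against 6006, 2271, 7761, 11158 and 14847 in WT_late tumours, so the WT_late tumours held both the lowest and the 3 highest values. The difference was -0.51 with an exact permutation p of 0.381, and it ran from -0.91 without WT_late_2 to -0.24 without WT_late_5. Whether transgene and endogenous transcripts both count here is not stated in the sources. In the MYC network of MAX partners and antagonists 6 of 14 members were higher and the median was -0.03. Mnt, given above, and Mga and Mlxip (-0.77 and -0.86), which also join MAX or its relative MLX, were lower at an unadjusted p under 0.05. They were 3 of 14 members, against 3.46% of all genes. With the length trend removed Mnt, Mga and Mlxip were at -0.62, -0.29 and -0.59. Only Mnt, 1 of 13 members with a length, then kept an unadjusted p under 0.05, against 1.78% of all genes lower.

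Ribosome biogenesis genes that MYC activates had the lower mean in HET_late tumours for 29 of 40 members, with a median of -0.12 and 0 at an unadjusted p under 0.05. Utp20, a subunit of the machinery that processes small subunit RNA, had 1288, 696, 972 and 688 in HET_late against 1421, 737, 1557, 1528 and 2776 in WT_late tumours. Ncl and Npm1, abundant nucleolar proteins, were at -0.15 and 0.09. HET_late_4 (-0.37) and WT_late_2 (-0.45), both of them with immunoglobulin A transcripts at high level, had the lowest medians of this list, and without HET_late_4 its median was -0.05. Genes of DNA replication and mitosis were lower for 37 of 42 members (median -0.25). By tumour their medians were -0.18, -0.12, 0.02 and -0.83 in HET_late and -0.28, -0.09, 0.05, 0.14 and 0.12 in WT_late, so HET_late_4 was lowest by far, and the median was -0.08 without it and -0.38 without HET_late_3. Kif20a, a mitotic kinesin, was at -0.88, Cenpe and Cenpf, of the kinetochore, at -0.71 and -0.70, and the helicase subunit Mcm4 at -0.67. Summed, the replication list came to 43864 to 85105 in HET_late and 68939.7 to 93537 in WT_late tumours.

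Interferon response genes had the higher mean in HET_late tumours for 40 of 45 members (median 0.93), against 51.6% of all genes. Of these 14 had an unadjusted p under 0.05, against 2.67% of all genes, and 0 members were lower at that p, against 3.46%. Irf1, a transcription factor that interferon induces, had 991, 818, 514 and 962 in HET_late against 683, 543, 430.2, 201 and 262 in WT_late tumours (1.05). WT_late_1 and WT_late_2 reached the HET_late range. Irgm1, whose promoter is shown above, had 698, 688, 618 and 935 in HET_late against 351, 318, 653, 427 and 361 in WT_late tumours. Only WT_late_3 reached the HET_late range, and the means were 735 ± 138 (SD, n = 4) in HET_late and 422 ± 135 (SD, n = 5) in WT_late. Zbp1, a sensor of Z-form nucleic acid, had 133, 196, 110.1 and 357 in HET_late against 58.1, 239, 13.3, 6.04 and 14.1 in WT_late tumours, and Gbp6, a guanylate-binding protein of a family with close copies, 60.98, 83.5, 17.3 and 46.7 against 10.1, 40.8, 9.64, 2.42 and 1.18. For these, as for the list as a whole, WT_late_2 was the WT_late tumour that matched the HET_late level.

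By tumour the interferon medians were 0.97, 1.05, 0.52 and 0.82 in HET_late and 0.30, 1.44, -0.25, -0.71 and -0.67 in WT_late, relative to the WT_late mean of each gene. The median of the list was 1.40 without WT_late_2, and 0.88 with the length trend removed. Without any other single tumour it lay between 0.78 and 1.04. The medians of T cell and cytotoxic markers were also high in HET_late_1, HET_late_2, HET_late_4 and WT_late_2, and their part in the interferon difference was not tested. In HET_late_3, WT_late_1 and WT_late_3 the interferon median differed in sign from both. T cell and cytotoxic medians were -0.28 and -0.23 in WT_late_1, and 0.30 and 0.68 in WT_late_3, where the interferon medians were 0.30 and -0.25. HET_late_3, the tumour with the least of these markers in its group, had an interferon median of 0.52 beside a T cell median of -1.43. In WT_late_4 and WT_late_5 all of these medians were low. They were -1.51 and -1.78 for T cell, -1.24 and -1.13 for cytotoxic, and -0.71 and -0.67 for interferon genes. The interferon-induced chemokine Cxcl9 had 562, 592, 29.1 and 355 in HET_late against 54.4, 328, 129, 10.9 and 15.3 in WT_late tumours, and here HET_late_3 did not stand above the WT_late tumours.

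T cell genes had the higher mean in HET_late tumours for 23 of 27 members (median 1.46), against 51.6% of all genes, and 6 were higher at an unadjusted p under 0.05, against 2.67%. The receptor subunit Cd3d had 40.1, 177, 3.15 and 209 in HET_late against 11.99, 231, 19.3, 4.83 and 4.71 in WT_late tumours. It was thus highest in WT_late_2, HET_late_4 and HET_late_2, and HET_late_3 was the lowest of the 9. Summed over the list, the level was 5053 to 11492 in HET_late and 1648 to 10266 in WT_late tumours, and over the 8 defining markers it was 161 to 3693 in HET_late and 64.7 to 5533 in WT_late. Cd3e was at 0 in WT_late_5, and Trbc1 in WT_late_4 and WT_late_5. The coreceptor gene Cd8a broadly followed Cd3d, with 199, 269, 8.65 and 182 in HET_late against 99.6, 113, 48.2, 6.04 and 7.06 in WT_late tumours, whereas Cd8b1 and Cd4 did not. Cd8b1 had 1614, 3847, 165 and 123 in HET_late against 2411, 69.3, 14.5, 7.25 and 97.7 in WT_late tumours, and Cd4 was at 5375 in WT_late_1 where Cd3d was 11.99. Cd247, the zeta chain of the receptor, was at 1496 in HET_late_3 where Cd3d was 3.15, and it shares bases with Pou2f1 on the other strand. The T cell median was 0.92 without HET_late_2 and 2.21 without HET_late_3.

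Cytotoxic and natural killer genes had the higher mean for 20 of 21 members (median 1.30), against 51.6% of all genes, and 8 were higher at an unadjusted p under 0.05, against 2.67%. Ccl5 had 578, 2116, 20.5 and 553 in HET_late against 43.3, 225, 81.9, 14.5 and 9.41 in WT_late tumours, and Gzmb, granzyme B, had 94.1, 40.3, 4.72 and 60.2 against 0.92, 46.9, 1.205, 2.42 and 3.53. HET_late_3 lay near the low WT_late tumours for both, and WT_late_2 was the highest WT_late tumour for both. The list's sum was 247 to 3943 in HET_late and 117 to 1949 in WT_late tumours, its median was 0.81 without HET_late_4, and Ncr1, a defining natural killer receptor, was at 0 in HET_late_2 and WT_late_2. Genes of immune checkpoints were higher for 13 of 18 members (median 0.58), with 1.14 without HET_late_3 and 0.30 without WT_late_5 as the extremes. Ctla4, an inhibitory receptor of T cells, had 81.9, 80.7, 129 and 146 in HET_late against 28.6, 248, 6.02, 2.42 and 0 in WT_late tumours, and there HET_late_3 was not low.

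Markers of other cells of the tumours also varied. Macrophage and monocyte genes were higher for 22 of 26 members (median 0.75, and 1.16 without HET_late_3), with sums of 14811 to 86611 in HET_late and 16629.6 to 73545 in WT_late tumours. C1qa, a complement subunit made by tissue macrophages, had 2184, 6193, 426 and 6233 in HET_late against 1356, 3452, 1036, 859 and 704 in WT_late tumours. Dendritic cell genes were higher for 11 of 12 members (median 1.46), with sums of 1539 to 10119 in HET_late and 1545 to 14015 in WT_late. Xcr1, a chemokine receptor of cross-presenting dendritic cells, had 25.3, 33.1, 11.01 and 22.6 in HET_late against 9.22, 8.15, 9.64, 9.67 and 3.53 in WT_late tumours, and Clec10a, a lectin of dendritic cells and macrophages, had 62.7, 156, 63.7 and 458 against 53.5, 11.2, 12.05, 43.5 and 45.9. For both of these the groups did not overlap, HET_late_3 included, which was lowest or next to lowest of its group. They were 2 of 12 members, against 0.477% of all genes. Neutrophil genes were lower for 9 of 12 (median -1.56, and -0.89 without HET_late_1), with sums of 268 to 1917 in HET_late and 428 to 2958 in WT_late. The granule protein genes S100a8 and S100a9 were lowest in HET_late_1, HET_late_4 and WT_late_2. Stromal genes (20 of 23 higher, median 0.31), endothelial genes (8 of 21, -0.09) and erythroid genes (5 of 13, -0.25) had sums that overlapped between HET_late and WT_late tumours. Without single tumours their medians ran from 0.14 to 0.69, from -0.15 to 0.06 and from -0.59 to 0.58 in the same order. The part of these cells in the other differences was not tested.

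**Figure D4:**
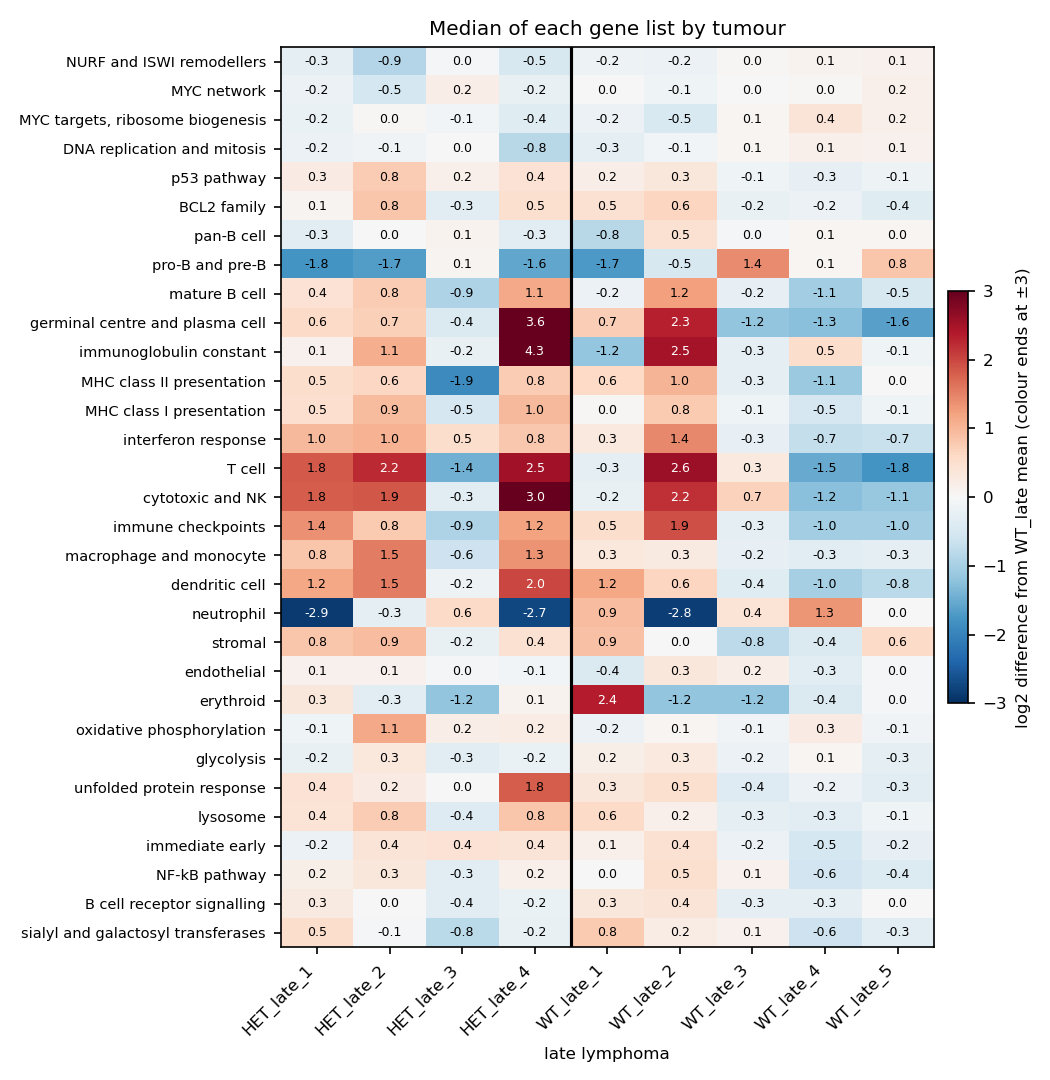
Median log2 difference from the WT_late mean over the members of each gene list (rows) in each late tumour (columns, HET_late left of the line and WT_late right of it). HET_late_1, HET_late_2, HET_late_4 and WT_late_2 share high T cell, cytotoxic and interferon medians, whereas HET_late_3 is low for T cell genes (-1.43) and near the WT_late tumours for pro-B and pre-B genes (0.09).

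The stage of B cell development differed from tumour to tumour. Pro-B and pre-B genes had the lower mean in HET_late tumours for 24 of 26 members (median -1.13), against 48.4% of all genes, and 5 were lower at an unadjusted p under 0.05, against 3.46%. Rag1, which cuts DNA in V(D)J recombination (chr2:101638282-101649501), had 0.87, 4.32, 3.15 and 1.51 in HET_late against 11.1, 5.096, 5367, 36.2 and 628 in WT_late tumours. All 4 HET_late tumours were below all 5 WT_late tumours, but WT_late_1, WT_late_2 and WT_late_4 were also low, and WT_late_3 and WT_late_5 carried the WT_late mean of 1209.5 ± 2339 (SD, n = 5), against 2.46 ± 1.57 (SD, n = 4) in HET_late. Rag2, its partner, was listed at 0, 0, 0.79 and 0 in HET_late, and at 0, 1.02, 688, 9.67 and 44.7 in WT_late tumours. Cplx2, a complexin, had 27.9, 41.8, 312 and 22.6 in HET_late against 18.4, 48.9, 1630.2, 2549 and 2103 in WT_late, and Cd93, a receptor of early B cells, 375, 177, 408 and 125 against 216, 228, 4329, 662 and 2471. Tcf3, a transcription factor of early B cells, had 1538, 1419, 4791 and 1462 in HET_late and 1738, 3402, 5975, 5469.9 and 6996 in WT_late tumours. HET_late_3 was highest of its group for Cplx2 and Tcf3, but not for Rag1. It held Vpreb3, of the surrogate light chain family, at 2949.9 and the interleukin 7 receptor gene Il7r at 1480.5, within the ranges of WT_late_3 to WT_late_5 for Vpreb3 (2824, 3259.9 and 3533) and just above them for Il7r (877, 1408 and 1273).

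By tumour the pro-B and pre-B medians were -1.79, -1.68, 0.09 and -1.56 in HET_late and -1.71, -0.48, 1.42, 0.06 and 0.84 in WT_late. WT_late_1 was as low as HET_late_1, HET_late_2 and HET_late_4. The list's median was -1.69 without HET_late_3, -0.74 without HET_late_4, -1.67 without WT_late_1 and -0.74 without WT_late_3, and -1.15 with the length trend removed. Pan-B genes were higher for 6 of 20 members (median -0.42) and mature B cell genes for 11 of 18 (median 0.19). Without HET_late_4 the pan-B median was -0.77, and it was -0.22 without HET_late_1 or without HET_late_3. The mature B median changed sign with single tumours, being -0.13 without WT_late_4, -0.05 without HET_late_4 and 0.57 without HET_late_3. Ms4a1, the CD20 gene, had 1603, 2641, 3.15 and 6090.1 in HET_late and 324, 12044, 475, 116 and 284 in WT_late tumours, a range that was wide within both groups.

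Germinal centre and plasma cell genes had the higher mean in HET_late tumours for 18 of 21 members (median 1.15), against 51.6% of all genes, and 3 had an unadjusted p under 0.05, against 2.67% of all genes higher at that p. One of these, Cd28, is also on the T cell list, a costimulatory receptor of T cells that plasma cells can carry. It had 169, 599, 9.44 and 527 in HET_late against 119, 93.8, 31.3, 9.67 and 3.53 in WT_late tumours, low in HET_late_3 as Cd3d was. Prdm1, the regulator of plasma cell fate, had 298, 114, 131 and 596 in HET_late against 206, 157, 36.1, 14.5 and 20.01 in WT_late tumours. HET_late_2 and HET_late_3 lay within the WT_late range, HET_late_1 and HET_late_4 above it, and WT_late_3 to WT_late_5 were lowest. Xbp1, which expands the secretory apparatus, had 1271, 1181, 1483 and 5658 in HET_late against 1180.2, 2071, 484, 775 and 479 in WT_late tumours. Jchain, which joins immunoglobulin A and M into polymers, had 5558, 2607, 267 and 57297 against 825, 5814, 513, 143 and 51.8. HET_late_4, the tumour of latest onset in its group, held most of the HET_late signal for both, and without it the list median was 0.62.

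Immunoglobulin constant regions were higher for 10 of 12 genes (median 1.84, and 0.63 without HET_late_4), none at an unadjusted p under 0.05. Igha had 186, 291, 1221 and 752208 in HET_late against 488, 40898, 212, 284 and 36.5 in WT_late tumours. Ighg2c had 107, 961, 56.6 and 734797 in HET_late against 7.38, 77.5, 1457, 505 and 68.3 in WT_late tumours, and the light chain gene Igkc 3955, 10135, 5047 and 689409 against 2252, 40303, 3675, 4670.01 and 4392. HET_late_4 stood above every other late tumour for these 3 genes, and WT_late_2 was next for Igha and Igkc. Ighm was at 19290.2, 27721, 28310.5 and 219.8 in HET_late and at 16809, 4949, 15269, 25585 and 16024 in WT_late tumours, so HET_late_4 had the lowest Ighm, where switched heavy chain classes were highest. Reads of the constant regions may be split between similar genes.

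Antigen presentation by class II MHC did not differ in 1 direction, with 5 of 12 genes higher and a median of -0.19 that was 0.79 without HET_late_3 and -0.52 without HET_late_4. H2-Ab1, a class II beta chain, had 9888, 12205, 2083 and 16196 in HET_late against 9894, 10609, 5945, 3361 and 7815 in WT_late tumours, and HET_late_3 was the lowest of the 9. Class I presentation genes had the higher HET_late mean for 19 of 22 members (median 0.51), against 51.6% of all genes, and 3 were higher at an unadjusted p under 0.05, against 2.67%. B2m, the invariant light chain, had 8838, 14648, 4382 and 23575 in HET_late against 5198, 12018, 7856, 4721 and 4674 in WT_late tumours, and H2-K1, a classical heavy chain, 5366, 9803, 1476 and 12513 against 1899, 12471, 5119.6, 1673 and 3523. HET_late_3 was lowest for both, and Tapbpl, given above, was the member of this list with the smallest p. The class I median was 0.32 without HET_late_2, 0.33 without HET_late_4 and 0.79 without HET_late_3. With the length trend removed it was 0.34, and B2m was at 0.34, against 0.75 as deposited.

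Oxidative phosphorylation genes had the higher mean in HET_late tumours for 46 of 50 members (median 0.36), against 51.6% of all genes, and 9 were higher at an unadjusted p under 0.05, against 2.67%. Uqcrq, a subunit of complex III, had 1155, 3309.8, 1541 and 2246 in HET_late against 1024, 1606, 1177, 1516 and 923 in WT_late tumours, and Ndufa3, a subunit of complex I, 818, 2502, 928 and 949 against 836, 769, 630.2, 934 and 607. HET_late_2 was highest for both, and Ndufa3 shares bases with Tfpt on the other strand. These genes have short transcripts (median 1232 nt), the list median was 0.12 without HET_late_2, and with the length trend removed it was 0.03. Under that removal 29 of 49 members were higher and 2 had an unadjusted p under 0.05, against 2.49% of all genes higher and 1.78% lower at that p. Glycolysis genes were higher for 8 of 21 members (median -0.14). At an unadjusted p under 0.05, 2 members were lower, against 3.46% of all genes. With the length trend removed 0 of 20 members with a length were, against 1.78%. Hk2, the hexokinase that MYC is known to raise, had 497, 367, 389 and 322 in HET_late against 894, 521, 571, 609 and 539 in WT_late tumours, with every HET_late tumour below the lowest WT_late tumour. Hk2 was picked after its values were seen, as the 1 member of 21 with this pattern, which 0.532% of all genes showed. Its difference was -0.66, and -0.48 with the length trend removed.

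Genes of the unfolded protein response had the higher mean for 26 of 28 members (median 0.59), against 51.6% of all genes, and 6 were higher at an unadjusted p under 0.05, against 2.67%. Edem2, which directs misfolded glycoproteins to degradation, had 614, 775, 528 and 2928 in HET_late against 638, 650.3, 358, 504 and 386 in WT_late tumours. Hspa5, the main chaperone of the endoplasmic reticulum, had 8358, 7926, 5807 and 21514 in HET_late and 8106, 10403, 3922, 3555 and 4094 in WT_late. HET_late_4 was highest for both, and without it the list median was 0.20. Lysosomal genes were higher for 30 of 32 members (median 0.36, 0.69 without HET_late_3, 0.20 without HET_late_4 and 0.23 without WT_late_4). Beside Ppt1, Grn, which encodes progranulin, had 4399, 5110.1, 3783 and 3525 in HET_late against 5286, 1591, 1387, 1728 and 1916 in WT_late tumours, where WT_late_1 exceeded all others. Of the 32 members tested, Ppt1, named above for its small p, was the only one without overlap between HET_late and WT_late tumours, a pattern of 0.477% of all genes in the higher direction and 0.532% in the lower.

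Of the remaining lists, the NF-kB pathway had 3 of 21 members lower at an unadjusted p under 0.05, against 3.46% of all genes. With the length trend removed it had 1, against 1.78%. The p53 pathway and the immediate early genes had 1 higher member each at that p, against 2.67%. The BCL2 family and B cell receptor signalling genes had 0 in either direction. The p53 pathway was higher for 20 of 33 members (median 0.21), and Cdkn2a, which encodes ARF, had 92.3, 213, 88.9 and 464 in HET_late and 71.9, 592, 100.01, 8.46 and 24.7 in WT_late tumours. Trp53 had 2075, 2388, 1882 and 1176 in HET_late against 2169, 2137, 2469, 2394 and 2839.7 in WT_late, with HET_late_4 the lowest. BCL2 family genes were higher for 11 of 17 (median 0.31), immediate early genes for 16 of 21 (median 0.38), NF-kB pathway genes for 13 of 21 (median 0.07), and B cell receptor signalling genes for 7 of 26 (median -0.09). Rel, the NF-kB subunit best known from lymphoid cells, had 619, 266, 230.5 and 357 in HET_late against 752, 654, 600.04, 371 and 466 in WT_late tumours (-0.69), and the groups overlapped through HET_late_1.

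Whole chromosomes also differed between single tumours. With the length trend removed, the median of each chromosome's genes was taken relative to the median of all 19 libraries. In HET_late tumours 1 of 80 such medians was above 0.15, chromosome 15 in HET_late_1 (0.26). In WT_late tumours 9 of 100 were, namely chromosome 15 in WT_late_1 (0.34), chromosome 18 in WT_late_3 (0.41), and chromosomes 3, 10, 14, 15, 16, 17 and 18 in WT_late_5 (0.24 to 0.50). The limit of 0.15 was chosen after the values were seen, and no median was below -0.15 in either group. Myc lies on chromosome 15, and the tumours with a raised median there, HET_late_1, WT_late_1 and WT_late_5, had Myc at 6567, 6006 and 14847. St6gal1 lies on chromosome 16, raised in WT_late_5, and over all omissions of single tumours its difference ran from -1.75 without HET_late_4 to -1.33 without WT_late_2. Chromosome copy number was not measured.

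**Figure D5:**
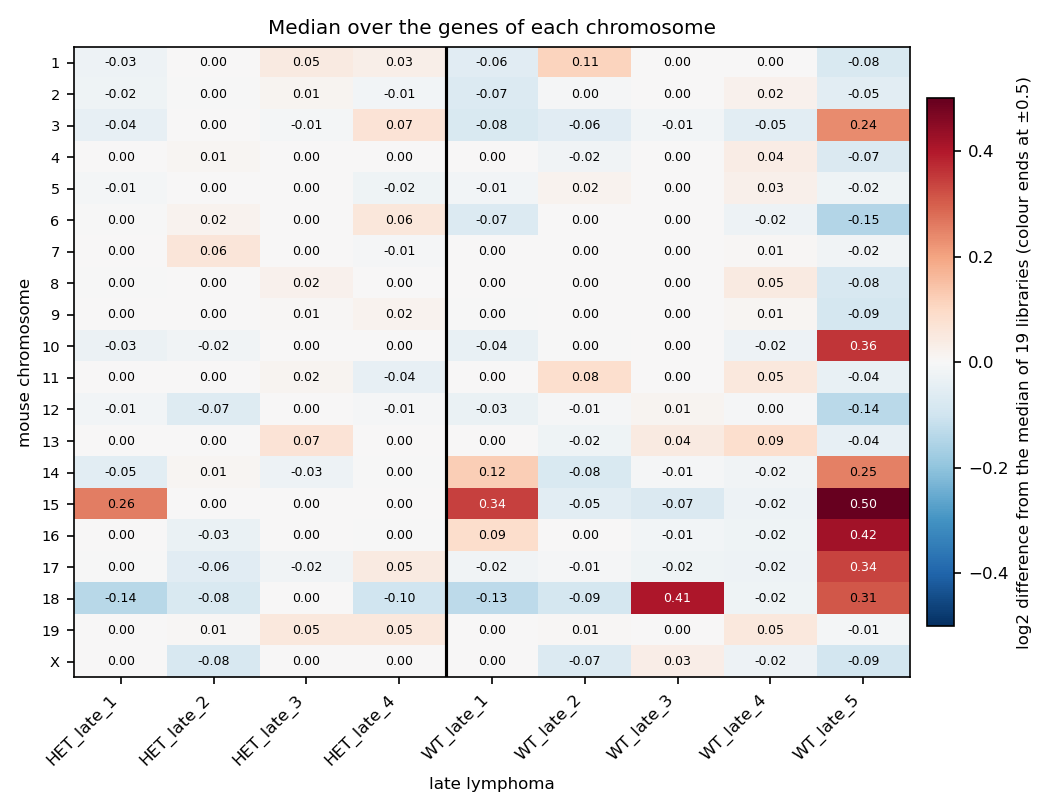
Median log2 difference from the median of all 19 libraries over the genes of each chromosome (rows), length trend removed, in each late tumour (columns, HET_late left of the line and WT_late right of it). WT_late_5 is raised on 7 chromosomes, chromosome 15 is raised in HET_late_1 (0.26), WT_late_1 (0.34) and WT_late_5 (0.50), and the other HET_late tumours stay near 0.

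Whether these differences belong to late tumours was asked by comparing them with the difference between HET_early and WT_early tumours in the same fit. Limma called 0 of 19927 genes for this difference of differences (0.0%, smallest adjusted p 0.436, 1382 at an unadjusted p under 0.05), edgeR called 0 (2116 at an unadjusted p under 0.05) and DESeq2 called 96, 15 higher and 81 lower. For Bptf the early difference was -0.49 and the test of the difference had an unadjusted p of 0.0343 (adjusted p = 0.714). In early tumours 55.5% of all genes had the higher HET_early mean. Igtp, Irgm1 and Ppt1 had early differences of 0.20, 0.03 and 0.29, against 1.81, 0.83 and 0.97 in late tumours. St6gal1 was at -0.31 and Usp24 at 0.01 in early tumours. Zbp1 was at 1.11 in early and 2.62 in late tumours. All of these were named for a small p in late tumours, a choice that by itself favours smaller early differences. None passed limma's test of the difference of differences (adjusted p 0.703 for Usp24 to 0.770 for Zbp1). List medians in early tumours were 0.60 for interferon, 1.19 for T cell, 0.64 for pro-B and pre-B, 0.02 for germinal centre and plasma cell, and -0.12 for oxidative phosphorylation genes. HET_early_2 was led by Col2a1, a cartilage collagen (4.36% of reads), and WT_early_6 by Bpifa2, a salivary protein (5.07%). The medians were 0.29, 1.05, 1.07, 0.06 and -0.10 in the same order without HET_early_2, and 0.66, 1.70, 0.66, 0.47 and -0.11 without WT_early_6. Of the 26 pro-B and pre-B genes 3 had an unadjusted p under 0.05 for the difference between early and late tumours and 0 passed after adjustment, so the contrast of a late median of -1.13 with an early one of 0.64 is a description.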

How the data were processed

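Per the labels' protocols, polyadenylated RNA of whole lymphomas was sequenced. The tools named, per the submitters' processing notes, are TopHat2 2.1.1, FastQC 0.11.5, Cuffdiff, Cuffnorm and Cufflinks 2.2.1, with the builds GRCm38 and mm10. What counted the reads, its strand setting and what made the comparison columns are not given in the sources used here. As deposited, the table of all genes holds a normalised signal, that is, reads per gene divided by 1 size factor per library. Whole reads were recovered for 100% of its values (tolerance 0.01 reads) and edgeR called 0 and DESeq2 33 genes on them. Other columns hold log2 fold changes and adjusted p-values per gene of the authors' own comparison, as the authors deposited them, and their sign, checked against the group means, is HET_late over WT_late. Library columns were matched to samples by name. The table has 21086 genes, of which 23 symbols had been turned into dates.

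Genes with at least 1 in 4 libraries (19927) were tested with limma 3.58.1 (trend) on log2(value + 1), with 1 mean for each of the 4 groups of genotype and onset over all 19 libraries and Benjamini-Hochberg adjustment. This scale understates changes of low genes. Bptf and Myc were also tested by an exact permutation over all splits of the 9 tumours. The replicates are separate tumours. Limma's SE and p-values rest on the spread within all 4 groups, early tumours included, and the permutation p-values on the 9 late tumours alone. The tests edgeR 4.0.16 and DESeq2 1.42.0 (R 4.3.3) on the recovered reads were alternatives. On data simulated for HET_late minus WT_late over 19927 genes, limma recovered 2.99%, 50.7% and 68.2% of genes changed 2-fold, 4-fold and 8-fold, with 5 unchanged genes called, edgeR 2.99%, 49.3% and 68.2% with 2, and DESeq2 16.4%, 70.1% and 80.3% with 43.

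Positions and lengths came from GENCODE M21 (16287 symbols matched, 212 through RefSeq synonyms), which gave a length for 92.2% of genes with a mean of at least 10. A loess trend (span 0.5) on log2 length was removed from each library as an alternative added after the data were seen. Members and gene lists were chosen with earlier results of these data known, so no list was tested. Named genes were Bptf, Myc, the 8 smallest limma p-values in each direction with a late group mean of at least 20 (predicted genes and variable segments passed over), genes the authors' table calls and up to 4 members of each described list with the smallest p. Others were picked after their values were seen, to show how a list varied, and some genes are not reported here. Python 3.11.15, pandas 2.3.3, NumPy 2.4.6 and SciPy 1.17.1 were used.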

Additional observations from a re-analysis of the deposited data

Results flagged for a closer look

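Of 146 sets of values checked, each 1 named gene in 1 group of late tumours, 13 had a tumour far from the others of its group, and chance alone marks about 1 in 20. In HET_late tumours, Tcf3 was high in HET_late_3 (4791, the others 1419 to 1538), Mycn was read in HET_late_3 alone (2.36, the others at 0), and Ighe was at 0 there (the others 10.5 to 16.6). Xbp1 was high in HET_late_4 (5658, the others 1181 to 1483) and Col27a1 was low in it (4.52, the others 19.7 to 20.2). Ndufa3 was high in HET_late_2 (2502, the others 818 to 949).

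In WT_late tumours, WT_late_1 was high for Grn (5286, the others 1387 to 1916) and low for Pip4k2b (1031, the others 1571 to 1852). Gzmb was high in WT_late_2 (46.9, the others 0.92 to 3.53). Ppt1 was high in WT_late_4 (684, the others 522 to 559.7), where Negr1 was at 0 (the others 0.92 to 1.205, a single read each). WT_late_5 was high for Zfp52 (269, the others 137 to 167) and for Mcm4 (4059, the others 2474 to 2769).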

How the results depend on the processing

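Limma's count of 0 genes was kept with every other pseudocount, filter, scaling, weight and covariate tried and with edgeR, whereas DESeq2 called 33, and leaving out single tumours gave 0 to 2 genes. For the difference between late and early tumours DESeq2 called 96 genes, the other settings 0, and omissions of single tumours 0 to 0. Bptf stayed below WT_late in all settings. Its difference of -1.36 missed the threshold with limma over all genes (adjusted p = 0.773), and ran from -1.66 to -1.01 without single tumours. For Myc that range was -0.91 to -0.24. Of 1521 values of named genes under the alternatives, 1504 kept their call, 17 values of 15 genes passed the threshold (DESeq2, or without HET_late_3) and 0 changed sign. No named gene passed in limma, so a kept call here is a missed threshold and not a difference that held. The 672 list medians moved by less than the spread between tumours, but 8 of 32 changed sign without a single tumour, the largest of them 0.25 in size. These include mature B cell (-0.13 to 0.57), erythroid (-0.59 to 0.58), endothelial (-0.15 to 0.06) and MYC network genes (-0.20 to 0.02). The cause of these changes was not tested. No paired analysis was possible because the tumours come from separate mice and their numbers only name libraries in the order of deposit. Differences of genes with a few reads, such as Negr1 and Muc20, are limited by depth, and intervals for counting error were not computed.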
